A study of Mus musculus with 7 samples.

Results

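Polycomb repressive complex 2 (PRC2) was examined through 9 of its subunit genes in LSK cells, the cells of the bone marrow (BM) that are negative for lineage markers, carry Sca1 and cKit, and include the hematopoietic stem cells (HSCs). The genes were taken by symbol and are the catalytic subunits Ezh1 and Ezh2, the core subunits Eed and Suz12, the Polycomb-like proteins Mtf2, Phf1 and Phf19, and the accessory subunits Jarid2 and Aebp2. All 9 were found among the 48440 genes of the deposited table, and all 9 were among the 16251 genes that reached a mean of 10 normalized counts, over which differences were tested.

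PRC2 places methyl groups on lysine 27 of histone H3, a mark of silent genes. EZH1 or EZH2 carries the methyltransferase activity, EED binds the mark and stimulates the enzyme, and SUZ12 is the scaffold on which the accessory proteins sit. The Polycomb-like proteins define the form called PRC2.1, and JARID2 with AEBP2 the form called PRC2.2. In blood, EZH2 is best known from dividing progenitors and lymphoid cells, and EZH1 from adult HSCs and resting cells.

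The cells came from bone marrow chimeric mice, which are C57BL/6 recipients that were lethally irradiated with 9.5 Gy and then given BM of a wild-type or a PROSER1 KO donor. The KO is constitutive and was made with an endonuclease, so that every donor cell carries it and no Cre or promoter limits it to a cell type. LSK cells were sorted 77 days after transplantation without further treatment, and RNA was sequenced in 4 wild-type and 3 PROSER1 KO libraries labelled as biological replicates. The sources used here do not give the age of the animals, the number of mice behind a library, or whether recipient cells were gated out of the sort.

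Values are normalized counts, which are read pairs per gene divided by 1 size factor per library, and depth was 33143619 to 45140743 read pairs on genes. The replicates of a group differed by more than sampling noise, and a count of 0 allows 3 read pairs, or 2.54 to 3.48 normalized counts, by counting error alone. The targeted gene, Proser1, had 2019, 2153, 2103 and 2077 normalized counts in wild-type replicates 1 to 4. In PROSER1 KO replicates 1 to 3 it had 2464, 2359 and 2338. It was not lower in the libraries labelled PROSER1 KO, so that every direction given here rests on the labels. Of 10 LSK marker genes, all were present in all 7 libraries, including Kit (25535 to 32357 normalized counts) and Ly6a, which encodes Sca1 (3961 to 6822). The fitted level was lower in PROSER1 KO for 7 of the 10, and 0 passed the thresholds given below. Mecom alone had groups that did not overlap, at 2683 to 3030 in wild-type and 2160 to 2610 in PROSER1 KO. Groups did not overlap for 10% of all tested genes. Transcripts of 8 B and plasma cell markers, mainly Ighm and Jchain, also held 2.29% to 5.61% of read pairs, with the lowest share in PROSER1 KO replicate 2 and the highest in wild-type replicate 4. PROSER1 KO replicate 1 stood apart in the T cell genes Cd3g (697 normalized counts, and 20.9 to 52.9 in the other libraries) and Cd3e (197, and 5.75 to 24.0), and it had the highest Ebf1 and Pax5. The rest of the T and NK cell markers lay within or close to the range of the other libraries. They were Cd4 (170, and 113 to 287 in the others), Cd8a (33.4, and 7.62 to 31.7), Nkg7 (2379, and 1950 to 2830) and Klrb1c (126, and 43.2 to 156). Without PROSER1 KO replicate 1, 0 of the 9 subunit genes were called, as with all 7 libraries, and a fit with fewer libraries has less power. A fit with the B and plasma cell marker level as a covariate, added after the values had been seen, is given below. Whether these transcripts have a part in the values of the subunit genes was not tested.

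None of the PRC2 subunit genes was differentially expressed between PROSER1 KO and wild-type LSK cells. With limma, a linear model with moderated variances fitted on log2(normalized count + 1), 0 of 9 passed an adjusted p-value under 0.05 with a fold change above 1.5, the thresholds that 0.258% of all tested genes passed. Without adjustment, 1 of 9 genes, Eed, had a p-value under 0.05, against 9.73% of all tested genes. With edgeR and with DESeq2 on the recovered read pairs, 0 of 9 were called as well. The log2 fold changes, given as PROSER1 KO over wild-type throughout, ran from -0.23 (Phf1) to 0.12 (Eed), and their median size without regard to sign was 0.04, compared with 0.09 over all tested genes. These medians were not matched for level. All tested genes include those from a mean of 10 normalized counts, while the lowest wild-type mean of a subunit gene was 855 (Phf19). The log2 fold changes were above 0 for 8 of the 9 subunit genes, compared with 50.6% of all tested genes. The 95% intervals of limma were narrow. The interval of every subunit gene stayed inside the 1.5-fold limits, and the widest, that of Phf1, covered changes from -28.6% to 1.89%.

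**Figure D1:**
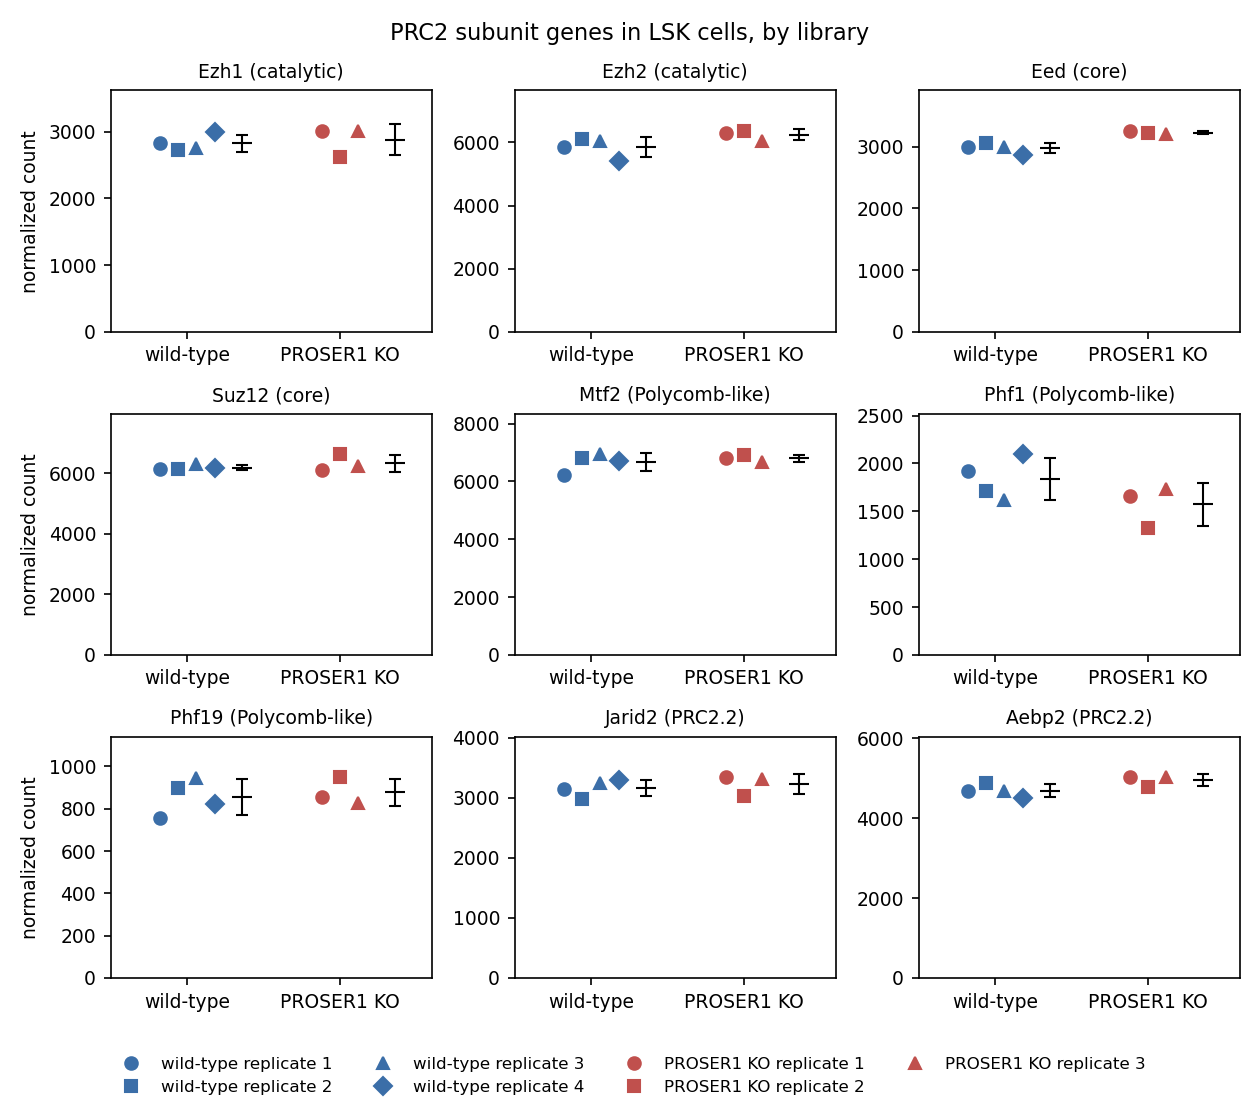
Normalized counts of the 9 PRC2 subunit genes (vertical axes, from 0) in 4 wild-type libraries (blue) and 3 PROSER1 KO libraries (red), where each symbol is 1 library and the black marks are the mean and SD of each group. Eed is the one gene whose 3 PROSER1 KO libraries all lie above the 4 wild-type libraries, and Phf1 has the widest relative spread.

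Ezh2 (ENSMUSG00000029687, chromosome 6, 47530139 to 47595341 on the reverse strand) had 5849, 6112, 6059 and 5416 normalized counts in wild-type replicates 1 to 4. In PROSER1 KO replicates 1 to 3 it had 6312, 6372 and 6049. Wild-type replicate 4 was the lowest library and the groups overlapped, since PROSER1 KO replicate 3 lay below wild-type replicates 2 and 3. Means were 5859 ± 316 (n = 4) for wild-type and 6244 ± 172 (n = 3, both with SD) for PROSER1 KO, and the log2 fold change was 0.09 (standard error 0.053, 95% interval -0.03 to 0.21, adjusted p = 0.605 from limma).

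Ezh1 (ENSMUSG00000006920, chromosome 11, 101191115 to 101226463 on the reverse strand) had 2825, 2721, 2749 and 2998 normalized counts in the wild-type libraries. In the PROSER1 KO libraries it had 3009.6, 2613 and 3015. PROSER1 KO replicate 2 was the lowest of all libraries while the other 2 were the highest, so that the PROSER1 KO group enclosed the wild-type group. The log2 fold change was 0.03 (standard error 0.065, 95% interval -0.12 to 0.17, adjusted p = 0.936 from limma), and its sign changed without PROSER1 KO replicate 1 or 3.

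The balance between the catalytic subunits was compared per length, as normalized counts per kb of exon. Ezh1 stood at 0.434, 0.400, 0.407 and 0.497 of the Ezh2 level in wild-type replicates 1 to 4. In PROSER1 KO replicates 1 to 3 it stood at 0.428, 0.368 and 0.447. Ezh2 was thus the more abundant catalytic transcript in every library, and the groups overlapped (0.434 ± 0.044 compared with 0.415 ± 0.041, SD, n = 4 and 3). With the longest transcript as the length the ratios were lower, at 0.321 and 0.306. No test was run on this ratio.

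The libraries also differed in transcripts of dividing cells. Over the 7 libraries, Ezh2 followed the summed level of 10 S-phase genes, which encode replication proteins such as the MCM helicase subunits and Pcna (Pearson's r = 0.844, Spearman's rho = 0.714), and Ezh1 ran against it (r = -0.822, rho = -0.893). Without wild-type replicate 4 and PROSER1 KO replicate 2, the libraries farthest from the median of the S-phase sum, r was -0.082 for Ezh2 and -0.927 for Ezh1. The S-phase sums of the remaining libraries ran only from 95998.5 to 100382, compared with 86378 to 108468 over all 7. Over so narrow a range, these values cannot show whether either relation rested on the 2 libraries. These are descriptions over 7 libraries that share 1 normalization, and the S-phase sum itself ran against the B and plasma cell markers (r = -0.839). The S-phase sums of the groups overlapped. All 10 genes had log2 fold changes above 0 (median 0.06), with 0 called by limma and 0 at an unadjusted p under 0.05. The 12 G2 and M phase genes were also all above 0 (median 0.18), with 0 called and 1, Aurka, at an unadjusted p under 0.05, and their summed levels overlapped too. Of all tested genes, 0.258% were called and 9.73% had an unadjusted p under 0.05. Whether these lists have a part in the values of Ezh1 and Ezh2 was not tested.

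The genes most like Ezh1 over the 7 libraries, among 13036 genes with a mean of at least 50, were Arid5b (r = 0.980), the Mediator kinase module gene Med13 (r = 0.978) and the kinase gene Snrk (r = 0.976). Those most like Ezh2 were Stx2, a syntaxin gene (r = 0.983), Anapc2, which encodes a subunit of the anaphase-promoting complex (r = 0.966), and Gypc, a membrane glycoprotein gene (r = 0.964). With 7 libraries such values are common, as 88 genes had an r over 0.9 with Ezh1 and 85 with Ezh2.

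E2F factors drive many genes of S phase, and the start sites of the subunit genes were searched for their element. The windows run from 250 bases before to 50 bases after the RefSeq start (GRCm38.p6), and the letters searched were TTTCCCGC, TTTCGCGC, TTTGCCGC and TTTGGCGC on both strands, where none contains another. Of 9 genes, 3 held 1 such element in a window (Ezh2, Suz12 and Phf19), and 2.6% of all 27025 genes with a window did. Some genes have several starts, and by window the element was in 3 of the 13 windows of the subunit genes and in 2.26% of all 32851 windows. These shares were not matched for G and C content, and 10 of the 13 windows exceeded the median of all windows in it. The windows of these 3 genes are shown 5′ to 3′ with the element in capitals, and that of Ezh1, which held none of these letters, is shown because it is the other catalytic gene.
Ezh2, chr6:47594981-47595280, reverse strand: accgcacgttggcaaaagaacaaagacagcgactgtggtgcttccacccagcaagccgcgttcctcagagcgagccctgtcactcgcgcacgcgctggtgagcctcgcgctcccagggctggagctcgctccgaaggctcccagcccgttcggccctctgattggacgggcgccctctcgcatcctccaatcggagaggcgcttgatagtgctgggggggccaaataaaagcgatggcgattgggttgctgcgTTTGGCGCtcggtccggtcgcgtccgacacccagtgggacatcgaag
Suz12, chr11:79992856-79993155, forward strand: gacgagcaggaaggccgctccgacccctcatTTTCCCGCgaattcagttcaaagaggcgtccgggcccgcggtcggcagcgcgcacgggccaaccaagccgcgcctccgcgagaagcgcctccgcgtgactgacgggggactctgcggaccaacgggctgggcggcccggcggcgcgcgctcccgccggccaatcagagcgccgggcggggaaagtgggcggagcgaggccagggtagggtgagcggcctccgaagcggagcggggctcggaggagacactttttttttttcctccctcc
Phf19, chr2:34913927-34914226, reverse strand: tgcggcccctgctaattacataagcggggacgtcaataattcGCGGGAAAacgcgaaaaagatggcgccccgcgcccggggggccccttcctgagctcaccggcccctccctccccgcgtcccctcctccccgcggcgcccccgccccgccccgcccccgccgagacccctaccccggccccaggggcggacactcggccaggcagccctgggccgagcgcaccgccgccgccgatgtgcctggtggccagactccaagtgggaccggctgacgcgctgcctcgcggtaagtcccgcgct
Ezh1, chr11:101226414-101226713, reverse strand: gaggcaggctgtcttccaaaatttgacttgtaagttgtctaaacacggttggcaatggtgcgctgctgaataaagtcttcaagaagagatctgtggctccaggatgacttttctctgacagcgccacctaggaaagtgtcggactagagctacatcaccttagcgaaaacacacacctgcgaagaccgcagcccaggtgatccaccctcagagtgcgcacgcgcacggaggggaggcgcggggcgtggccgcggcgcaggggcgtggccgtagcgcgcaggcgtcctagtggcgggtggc
Counted from the start at 1, the element began at position 4 in Ezh2, at -219 in Suz12 and at -208 in Phf19. In Phf19 it reads as the reverse complement of TTTCCCGC. A match of letters says only that they are there, and no binding was measured. All 4 windows were richer in G and C than the median window (52.7%), at 64.3% in Ezh2, 71.0% in Suz12, 74.3% in Phf19 and 59.3% in Ezh1. Against the S-phase sum, the r of Suz12 was 0.671 and that of Phf19 0.624, and without the 2 farthest libraries they were 0.329 and 0.712. Among genes without the element, the r over the 7 libraries was 0.591 for Eed, 0.337 for Mtf2 and 0.323 for Aebp2. It was -0.632 for Jarid2, -0.822 for Ezh1 and -0.909 for Phf1. Whether the element has a part in these values was not tested.

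Eed was the subunit gene nearest to a difference. Eed (ENSMUSG00000030619, chromosome 7, 89954654 to 89980983 on the reverse strand) had 2991, 3069, 3005 and 2868 normalized counts in the wild-type libraries. In the PROSER1 KO libraries it had 3261, 3229.9 and 3204. All 3 PROSER1 KO libraries lay above all 4 wild-type libraries, the one such case among the 9 genes, while groups did not overlap for 10% of all tested genes. Means were 2983 ± 84.1 (n = 4) for wild-type and 3232 ± 28.6 (n = 3, both with SD) for PROSER1 KO, or 8.35% higher on the fitted scale, with a 95% interval of 1.12% to 16.1%. The log2 fold change of 0.12 (standard error 0.044) had an unadjusted p of 0.0274 and an adjusted p of 0.432 from limma, and it did not pass. Across the alternatives its log2 fold change was 0.10 to 0.13 and its adjusted p 0.390 to 0.647.

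Among the marker lists of other cell types, only that of macrophages had summed levels that did not overlap between the groups. Single genes did so in 10% of all tested genes. The summed normalized counts of this list were 568 to 891 in wild-type and 979 to 1128 in PROSER1 KO. Of its 5 genes, 4 had log2 fold changes above 0 and 0 were called by limma. An unadjusted p under 0.05 was found for 1 (Csf1r), and for 9.73% of all tested genes. Csf1r, a receptor gene that some progenitors express too, held most of the sum (424 to 870.0). Vcam1 was at 64.9 to 309 (log2 fold change 0.87, unadjusted p = 0.0582 from limma), Adgre1 at 15.2 to 40.2, C1qa at 11.6 to 49.1 and C1qb at 20.9 to 49.9, with 0 of the 5 at 0 in any library. Whether this list has a part in the difference of Eed was not tested.

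Suz12 (ENSMUSG00000017548, chromosome 11, 79993106 to 80034123 on the forward strand) was the steadiest subunit gene in wild-type cells. Its normalized counts were 6151, 6147, 6299.9 and 6189 in the wild-type libraries and 6124, 6650.2 and 6239.6 in the PROSER1 KO libraries. The wild-type libraries varied by 1.15% (coefficient of variation), compared with 1.26% for the counting of read pairs alone. PROSER1 KO replicate 2 was the highest library, PROSER1 KO replicate 1 the lowest, and the groups overlapped. The log2 fold change was 0.03 (standard error 0.044, 95% interval -0.07 to 0.13, adjusted p = 0.872 from limma), and it was -0.003 without PROSER1 KO replicate 2. Eed stood at 0.622 ± 0.020 of the Suz12 level per length in wild-type (SD, n = 4) and 0.660 ± 0.030 in PROSER1 KO (SD, n = 3), with overlapping groups.

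Among the Polycomb-like genes, Mtf2 led and Phf1 varied the most. Mtf2 (ENSMUSG00000029267, chromosome 5, 108065674 to 108109004 on the forward strand), whose protein binds unmethylated CpG-rich DNA and brings PRC2 there, had 6222, 6808, 6957 and 6708 normalized counts in wild-type. In PROSER1 KO it had 6797, 6929 and 6664, within the range of the wild-type libraries. Its log2 fold change was 0.03 (standard error 0.049, 95% interval -0.08 to 0.14, adjusted p = 0.905 from limma).

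Phf19 (ENSMUSG00000026873, chromosome 2, 34893757 to 34914026 on the reverse strand) was the subunit gene with the lowest level. It had normalized counts of 755, 899, 945 and 823 (wild-type) and 854, 950.3 and 828 (PROSER1 KO). The ranges were nearly the same, and the log2 fold change was 0.04 (standard error 0.093, 95% interval -0.17 to 0.25, adjusted p = 0.933 from limma). Mtf2 and Phf19 were the pair of subunit genes that went together most closely over the 7 libraries (r = 0.926), of 36 pairs whose r ran down to -0.876 for Ezh2 and Phf1.

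Phf1 (ENSMUSG00000024193, chromosome 17, 26933052 to 26937908 on the forward strand) was the one subunit gene with a log2 fold change below 0. It had normalized counts of 1920.3, 1711, 1621 and 2101 (wild-type) and 1657, 1321 and 1736 (PROSER1 KO). PROSER1 KO replicate 2 was the lowest and wild-type replicate 4 the highest library, and the groups overlapped. Means were 1838 ± 215 (n = 4) for wild-type and 1571 ± 220.3 (n = 3, both with SD) for PROSER1 KO, and the log2 fold change was -0.23 (standard error 0.11, 95% interval -0.48 to 0.03, unadjusted p = 0.0740, adjusted p = 0.553 from limma). It did not pass, and without PROSER1 KO replicate 2 the log2 fold change was -0.11.

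The levels of several subunit genes moved with the B and plasma cell markers, Phf1 in the same direction and others against it. Over the 7 libraries the r of Phf1 with their summed level was 0.928 (rho = 0.893), and it was 0.847 without wild-type replicate 4 and PROSER1 KO replicate 2. Such values are common with 7 libraries, as 204 of 13036 genes had an r over 0.9 with Phf1. How many genes have such an r with the marker sum was not counted. Of the 8 markers, 6 had log2 fold changes below 0 and 0 were called by limma (0.258% of all tested genes were). An unadjusted p under 0.05 was found for 2, Ebf1 and Pax5, both higher in PROSER1 KO (9.73% of all tested genes had one). The summed level of the 8 markers overlapped between the groups, and 0 of them were at 0 in any library. With the log2 marker sum as a covariate, an alternative added after the values had been seen, the log2 fold change of Phf1 was -0.05 (adjusted p = 0.873 from limma) and that of Eed 0.10 (adjusted p = 0.559 from limma). Ezh2 was at 0.04, Ezh1 at 0.10, Suz12 at 0.0031, Mtf2 at -0.0084, Phf19 at -0.073, Jarid2 at 0.06 and Aebp2 at 0.07 in that fit, with 0 of 9 called. In bulk RNA, a different number of cells of a type and a different amount of RNA per cell cannot be told apart. The r with the marker sum was -0.821 for Ezh2, -0.766 for Phf19, -0.711 for Suz12, -0.667 for Eed and -0.619 for Mtf2. It was -0.408 for Aebp2, 0.185 for Jarid2 and 0.540 for Ezh1. Without the same 2 libraries the r was -0.396 for Ezh2, -0.776 for Phf19, -0.804 for Suz12, -0.162 for Eed and -0.818 for Mtf2. Phf1 also ran against the S-phase sum (r = -0.909), and r was -0.350 over the narrow range left without the same 2 libraries.

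**Figure D2:**
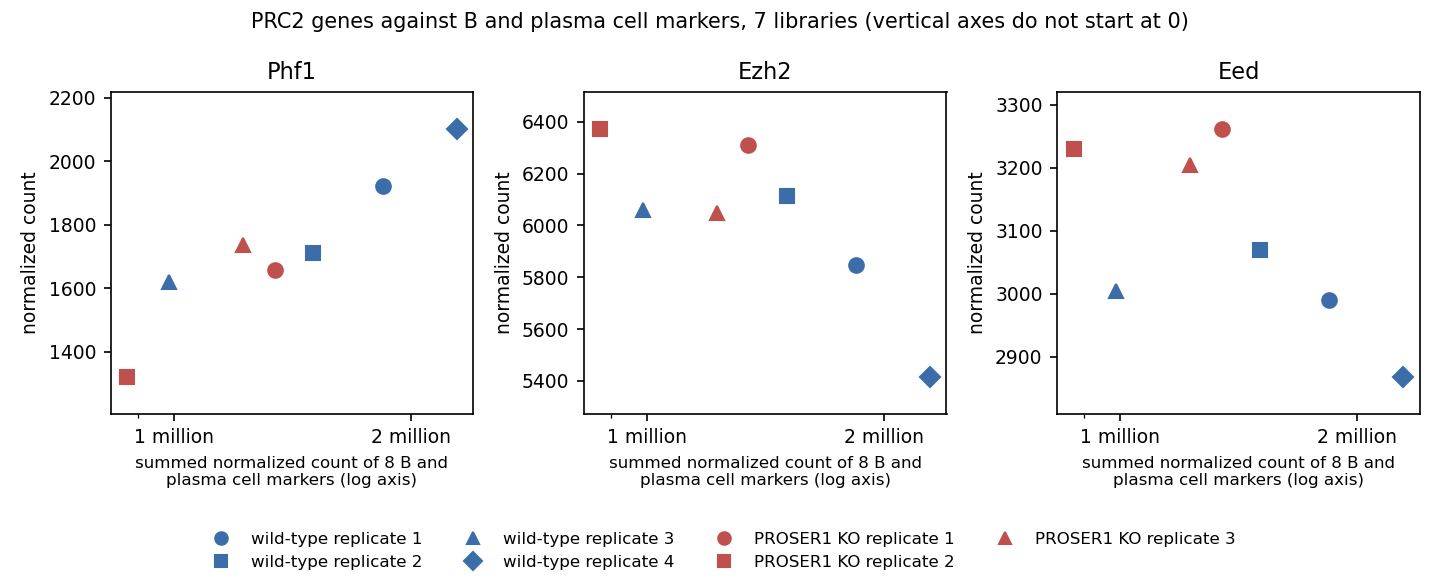
Normalized counts of Phf1, Ezh2 and Eed (vertical axes, not from 0) against the summed normalized count of 8 B and plasma cell markers (horizontal log axis) in the 4 wild-type (blue) and 3 PROSER1 KO (red) libraries. Phf1 is lowest in PROSER1 KO replicate 2 and highest in wild-type replicate 4, the libraries with the lowest and highest marker sums (r = 0.928). Eed is higher in all 3 PROSER1 KO libraries, and its r with the marker sum is -0.667.

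Phf1 shares exon sequence with Cuta, a gene on the other strand, over 720 aligned bases, and the strand setting of the counting is not given in the sources used here. Cuta, named after its values were seen, had normalized counts of 1805, 1778, 1722 and 1791 (wild-type) and 1673, 1755 and 1686 (PROSER1 KO) (-0.06 on the log2 scale, limma adjusted p = 0.751). Mtf2 shares 396 bases with Tmed5, and Eed and Suz12 share 261 and 180 bases with noncoding genes. Counts of these 4 subunit genes are therefore less certain than those of the others, for which no other transcript matched over at least 100 bases at 95% identity.

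Jarid2 and Aebp2, the PRC2.2 genes, were close to their wild-type levels. Jarid2 (ENSMUSG00000038518, chromosome 13, 44729474 to 44921643 on the forward strand), a relative of histone demethylases that lacks the enzyme activity and helps bring PRC2 to its sites, had normalized counts of 3143, 2990.2, 3245 and 3291 (wild-type) and 3351, 3039.5 and 3312 (PROSER1 KO). The groups overlapped, and the log2 fold change was 0.03 (standard error 0.055, 95% interval -0.09 to 0.15, adjusted p = 0.909 from limma). Aebp2 (ENSMUSG00000030232, chromosome 6, 140622663 to 140678472 on the forward strand), a zinc finger protein that steadies the complex, had 4675, 4889.5, 4688 and 4518 (wild-type) and 5030.2, 4775 and 5035 (PROSER1 KO). In Aebp2 the highest 2 libraries were PROSER1 KO replicates 1 and 3, and PROSER1 KO replicate 2 lay within the wild-type range. The log2 fold change was 0.08 (standard error 0.046, 95% interval -0.03 to 0.18, adjusted p = 0.628 from limma).

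Levels were ordered by normalized counts per kb of exon in wild-type cells. Suz12 (1253 ± 14.4, SD, n = 4) and Mtf2 (1171 ± 55.9) were highest, followed by Ezh2 (877 ± 47.4) and Eed (779 ± 22.0). Phf1 (527 ± 61.8), Aebp2 (476 ± 15.5), Ezh1 (379 ± 16.7) and Jarid2 (326 ± 13.7) came next, and Phf19 was lowest (169.8 ± 16.6). In PROSER1 KO cells the means were 1282, 1193, 935, 844, 451, 502, 387, 333 and 174 in the same order of genes, so that only Phf1 and Aebp2 changed places. Over the 7 libraries, the ranges of neighbours in this order overlapped for Ezh2 and Eed and for Phf1 and Aebp2. Ezh2 nevertheless lay above Eed within each of the 7 libraries, whereas Phf1 lay above Aebp2 in 2 of 7. The order depends on the length used. Per longest transcript, Ezh2 was first (2102), followed by Mtf2 (1644), Eed (1443) and Suz12 (1417), and Phf19 remained last (229).

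**Figure D3:**
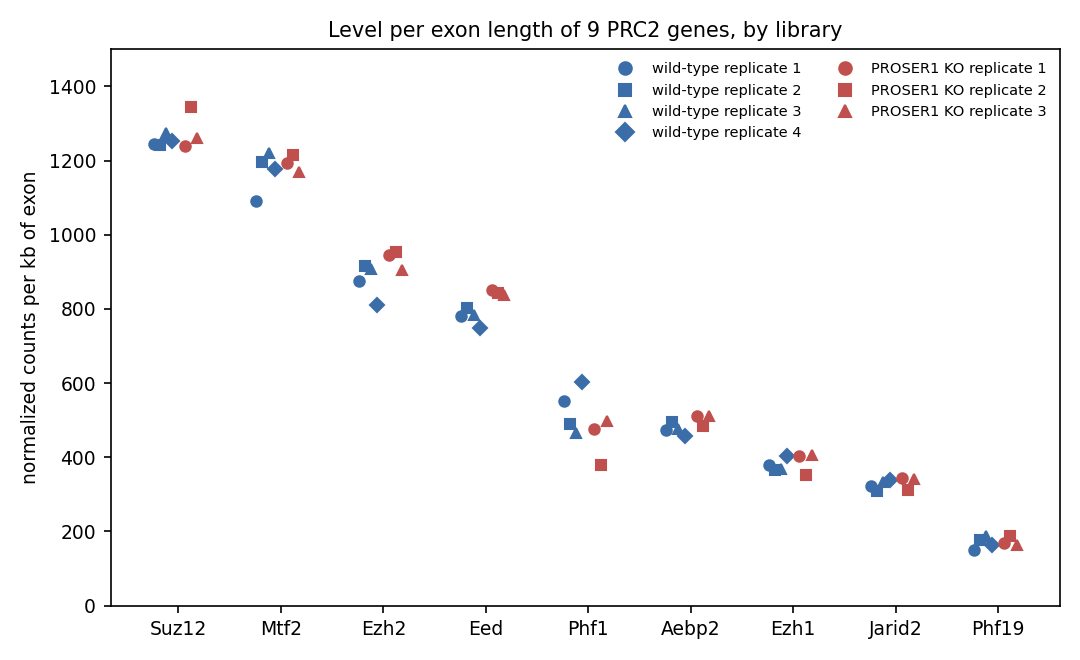
Normalized counts per kb of exon (vertical axis, from 0) of the 9 PRC2 genes, ordered by the wild-type mean, where each symbol is 1 wild-type (blue) or PROSER1 KO (red) library. Suz12 and Mtf2 stand highest and Phf19 lowest in all 7 libraries, and Phf1 and Aebp2 overlap.

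Within the 3 Polycomb-like genes, Mtf2 held 62.7% ± 2.3 of the summed level per length in wild-type and 65.7% ± 2.3 in PROSER1 KO (SD, n = 4 and 3). Phf1 held 28.2% ± 3.1 and 24.8% ± 3.1, and Phf19 9.09% ± 0.83 and 9.59% ± 0.86. For each of these shares the groups overlapped. The sum of the Polycomb-like genes (PRC2.1) was 2.25, 2.32, 2.31 and 2.44 times that of Jarid2 and Aebp2 (PRC2.2) in the wild-type libraries and 2.15, 2.24 and 2.15 times in the PROSER1 KO libraries. The 3 PROSER1 KO values lay below the 4 wild-type values, but per longest transcript the groups overlapped (1.939 to 2.037 in PROSER1 KO and 2.014 to 2.199 in wild-type). This ratio was formed with results known, and it was not tested.

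**Figure D4:**
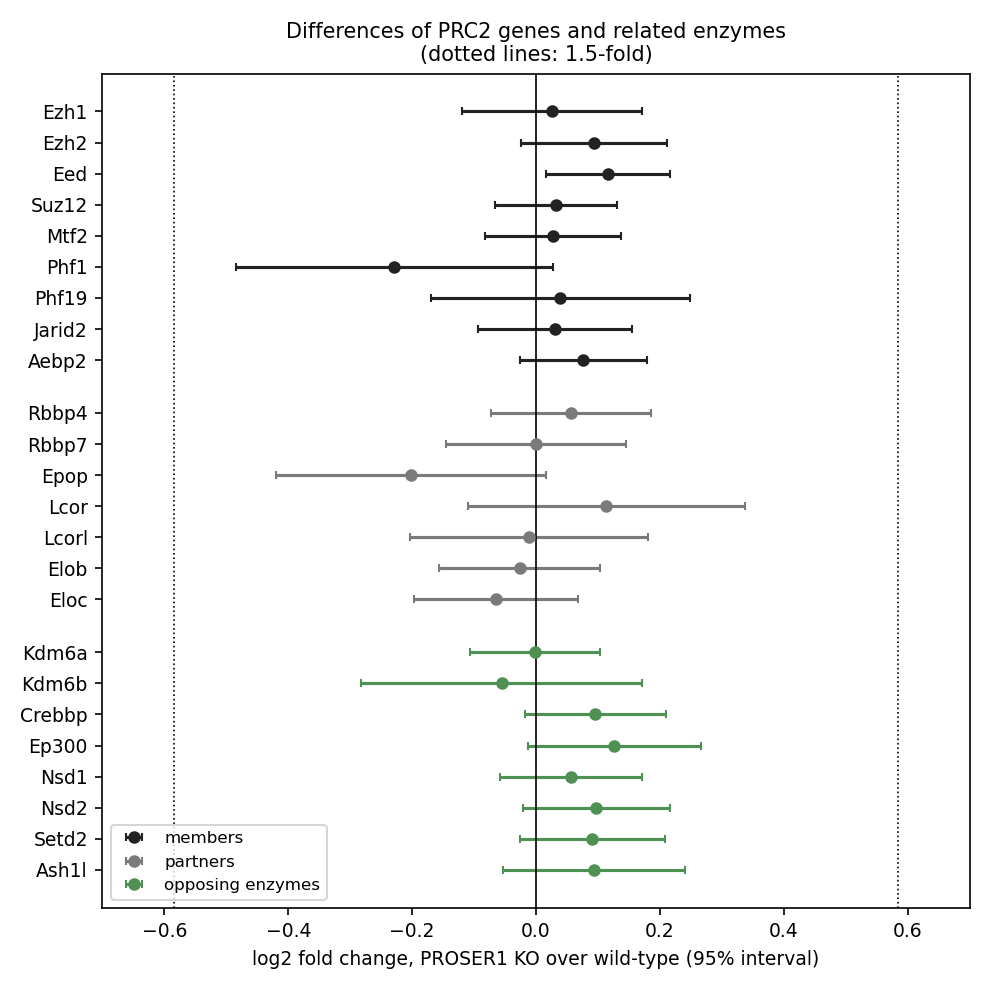
Log2 fold changes of PROSER1 KO over wild-type (horizontal axis) with 95% intervals of limma for the 9 PRC2 subunit genes (black), 7 partner genes (grey) and 8 enzymes that act against PRC2 (green). All intervals lie between the dotted lines at 1.5-fold, and that of Eed alone does not reach 0.

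The partners of the complex gave no call either. Of 8 partner genes listed, 7 had a row and were tested, with 0 called by limma and 0 at an unadjusted p under 0.05. Of all tested genes, 0.258% were called and 9.73% had such a p. The partner genes had a median log2 fold change of -0.01. The median size without regard to sign was 0.056, and the values ran from -0.20 (Epop) to 0.11 (Lcor). The histone-binding subunits Rbbp4 (10749 to 12797 normalized counts, log2 fold change 0.06) and Rbbp7 (10862 to 12849, 0.00) are shared with other chromatin complexes. Of the PRC2.1 partners, Epop had normalized counts of 838, 869.9, 782 and 722 (wild-type) and 617, 755 and 725 (PROSER1 KO). The Epop groups overlapped (log2 fold change -0.20, unadjusted p = 0.0662, adjusted p = 0.540 from limma). Lcor (0.11) and Lcorl (-0.01), which can also encode the PALI proteins of PRC2.1, and the elongin genes Elob (-0.03) and Eloc (-0.06), whose proteins bind EPOP, had log2 fold changes on both sides of 0. Ezhip, an inhibitor of PRC2, had no row under this symbol, and its older symbol AU022751 was at 0 in all 7 libraries.

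The enzymes that act against PRC2 remove the methyl mark (Kdm6a and Kdm6b), acetylate the same lysine (Crebbp and Ep300) or methylate lysine 36 of histone H3, which hinders PRC2 (Nsd1, Nsd2, Setd2 and Ash1l). Of these 8 genes 0 were called by limma and 0 had an unadjusted p under 0.05, against 0.258% and 9.73% of all tested genes. The log2 fold changes of the 8 enzymes were above 0 for 6 and below 0 for 2, with a median of 0.09 and an upper end of 0.13 (Ep300, adjusted p = 0.547 from limma). The most abundant were Nsd1 (10803 to 12311 normalized counts, log2 fold change 0.06) and Nsd2 (9349 to 10821, 0.10).

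Genes that PRC2 is known to keep silent were at or near the detection limit in both groups. Of 43 developmental regulators, among them Gata4, Pax6, Sox1 and Hoxd13, 19 were at 0 in all 7 libraries and 33 had at most 3 read pairs in every library. None exceeded 25.2 normalized counts in any library, and 1 of 43, Isl1, reached the mean of 10 required for a test. Isl1, a LIM homeodomain gene, had normalized counts of 6.73, 25.2, 21.8 and 12.8 (wild-type) and 0, 9.31 and 0 (PROSER1 KO). The groups overlapped, since wild-type replicate 1 lay below PROSER1 KO replicate 2. Its log2 fold change was -2.87 (unadjusted p = 0.0103, adjusted p = 0.327 from limma) and depended on the pseudocount, with -5.03 at 0.1 and -1.04 at 10. Sox17, the other most abundant gene of the list, had 7.69, 4.51, 6.9 and 9.27 (wild-type) and 4.17, 2.54 and 16.3 (PROSER1 KO), too low for the test.

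A second list held 7 PRC2 targets known from stem cells and progenitors, of which 4 reached the mean required for a test. Of these, 0 were called, against 0.258% of all tested genes. Hmga2, a chromatin protein gene active in fetal and adult HSCs, had normalized counts of 1135, 989, 1322 and 1067 (wild-type) and 1249.7, 1318 and 1420.0 (PROSER1 KO). The groups overlapped, as wild-type replicate 3 exceeded PROSER1 KO replicates 1 and 2 (log2 fold change 0.24, unadjusted p = 0.0346, adjusted p = 0.457 from limma). Igf2bp2, an RNA-binding protein gene, had 125 to 155 (log2 fold change -0.08). Cdkn2a, the cell cycle inhibitor locus that PRC2 holds down in many cell types and that was named after its values were seen, had 5.77, 7.21, 2.3 and 16.2 (wild-type) and 13.6, 17.8 and 14.4 (PROSER1 KO). It was low in every library and its groups overlapped (1.11 on the log2 scale, limma adjusted p = 0.579). Igf2bp3, a fetal RNA-binding protein gene and the fourth tested, had 16.3, 14.4, 13.8 and 9.27 (wild-type) and 19.8, 22 and 13.4 (PROSER1 KO), again with overlapping groups (0.42 on the log2 scale, limma adjusted p = 0.764). Of those not tested, Cdkn2b had 2.88 to 15.1 normalized counts, and Lin28b and Igf2bp1 had at most 3 read pairs in every library.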

How the data were processed

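The 4 wild-type and 3 PROSER1 KO libraries of LSK RNA were grouped by their labels. Read pairs were trimmed (Trimmomatic), aligned to mm10 (STAR), counted per gene (featureCounts) and scaled by DESeq2 size factors by the authors. The deposited values are thus a normalized signal per gene, with 0 columns left unused. The smallest step of each library gave back whole read pairs for 100% of values (tolerance 0.01).

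Differences were fitted by limma 3.58.1 (R 4.3.3, moderated variances with a trend on the mean) to log2(normalized count + 1), and p-values were adjusted by Benjamini-Hochberg over 16251 genes. Fold changes of low genes depend on this scale and can be understated or overstated. The log2 fold change of Isl1 was -2.87 on it, compared with -2.37 by DESeq2 and -2.28 by edgeR. The labels call the replicates biological but tie none to an animal, so that p-values measure only the spread between these libraries. Other settings were a pseudocount of 0.1 or 10, all genes or those with a mean of 50 or more, variances without the trend or robust ones, TMM and quantile normalization, edgeR 4.0.16 (quasi-likelihood), DESeq2 1.42.0, no fold change minimum, the replicate number as a block, and each library left out. The procedures were tested on simulated data whose changes were larger than those of the subunit genes, so that this test does not cover changes of their size.

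Positions and lengths come from GENCODE M21 (GRCm38), which holds 48058 of the 48440 gene IDs and 9 of 9 subunit genes. The methods name a later release, and a header in the table an earlier one. Similar transcripts were sought with blastn 2.17.0. Levels per length are normalized counts per kb of the union of exons. Promoter windows are RefSeq's.

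The subunit genes and all lists were chosen with earlier results of these data known. Named were all subunit and partner genes, Proser1, the 2 most abundant genes and those with an unadjusted p under 0.05 among opposing enzymes and targets, and the 3 genes most like Ezh1 and Ezh2 by Pearson's r.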

Additional observations from a re-analysis of the deposited data

Results flagged for a closer look

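A library far from the rest of the wild-type group was sought in 48 values (Dixon's test on 4 libraries at its 95% critical value), and 2 were found, about as many as the 1 in 20 that chance gives. Stx2, the gene most like Ezh2, had a normalized count of 991 in wild-type replicate 4, below the other wild-type libraries. The summed normalized count of 12 G2 and M phase genes was 69418 in wild-type replicate 3, above the other wild-type libraries. No value of a PRC2 subunit gene was among them. The 3 PROSER1 KO libraries are too few for this search.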

How the results depend on the processing

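None of the 9 subunit genes was called under any of the 20 alternatives, and none of the partners, opposing enzymes or targets. The number of all genes called moved from 42 to 17 without the mean-variance trend, 80 with robust variances and 165 with DESeq2, and ran from 23 (without PROSER1 KO replicate 2) to 42 with 1 library left out. Of 171 alternative log2 fold changes of subunit genes, 8 changed sign, in 4 genes. With the B and plasma cell markers as a covariate, added after seeing the data, Mtf2 was at -0.0084, Phf19 at -0.073 and Rbbp7 at -0.086. With 1 library left out, log2 fold changes ran from -0.0087 to 0.094 for Ezh1, -0.0035 to 0.056 for Suz12, -0.0058 to 0.048 for Mtf2, -0.019 to 0.089 for Phf19, -0.0036 to 0.088 for Rbbp4, -0.067 to 0.045 for Rbbp7, -0.10 to 0.091 for Lcorl, -0.057 to 0.012 for Elob, -0.012 to 0.13 for Med13 and -0.0015 to 0.071 for Snrk. The cause was not tested.

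Per longest transcript, wild-type levels were 671 for Ezh1, 2102 for Ezh2, 1443 for Eed, 1417 for Suz12, 1644 for Mtf2, 229 for Phf19, 379 for Jarid2 and 791 for Aebp2, since that length is shorter, and the Ezh1 to Ezh2 ratio was 0.321 in wild-type and 0.306 in PROSER1 KO.

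Deviations from the group mean in libraries with the same replicate number had r = 0.023, 0.058 and -0.106. Pairs with different numbers ran from -0.131 to 0.142. Such values cannot show whether the numbers mark a shared animal or day, which the labels do not say. With the replicate block, 35 genes and 0 subunit genes were called, and Rbbp7 was at -0.036. The count of 1 subunit gene with separate groups stayed at 1 with TMM and with quantile normalization, both added after seeing the data. Depth limits the developmental targets, of which 33 had at most 3 read pairs.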
